A study of Caenorhabditis elegans with 18 samples.

Results

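The transcripts described here are those of 10 genes of the 2 best studied transforming growth factor beta (TGF-beta) pathways of the nematode Caenorhabditis elegans, out of 46748 genes in the deposited count table. They were chosen by name, as members of the DAF-7 dauer pathway (daf-7, daf-1, daf-4, daf-8, daf-14, daf-3 and daf-5) and of the DBL-1 body size pathway (dbl-1, sma-2 and sma-3, with daf-4 shared by both). The choice was made with earlier results of these data known. All 10 names matched 1 WormBase gene identifier each, and all 10 genes had enough counts to be tested. RNA of whole N2 worms, the wild-type strain, all hermaphrodites, was sequenced in 18 libraries, with 3 libraries in each of 6 groups. The groups combined 3 plasmids (L4440, the empty vector commonly used for RNA interference by feeding, M05B5.5, which is the sequence name of hlh-2, and T14F9.5, that of lin-32) with ages labelled 1 day and 5 days. The series title names M05B5.3 where every sample label gives M05B5.5. The labels do not say when, or in what way, the plasmids were given. They also leave unsaid whether replicate libraries were grown apart, and the p-values then reflect only library-to-library spread, which may be technical.

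As background, DAF-7 is a TGF-beta ligand made mainly by the ASI sensory neurons when food is plentiful and pheromone is scarce. It acts through the type I receptor DAF-1 and the type II receptor DAF-4, whose Smad proteins DAF-8 and DAF-14 antagonise the co-Smad DAF-3 and its partner DAF-5, a Sno/Ski family protein, so that larvae grow to reproductive adults and do not arrest as dauers. DBL-1 is a BMP-like ligand made mainly by neurons, which signals through DAF-4 and the type I receptor SMA-6 to the Smads SMA-2, SMA-3 and SMA-4 and sets body length in the epidermis, among other roles.

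Each library held between 27024193 and 43016293 counts. Levels are given as CPM, the counts of a gene scaled to a common library size, with TMM factors to correct for differences in library composition. Because these are bulk libraries of whole worms, fewer cells of a type and less RNA per cell cannot be told apart. The target of M05B5.5, hlh-2, stood at 12.1 ± 0.682 CPM (SD, n = 3) with that plasmid and 41.3 ± 15.7 CPM with L4440 at day 1, and at 21.5 ± 9.33 and 57.2 ± 3.02 CPM at day 5. The libraries labelled T14F9.5 held no less lin-32, the target of that plasmid, with 2.19 ± 0.246 against 2.05 ± 0.456 CPM at day 1 and 3.75 ± 2.34 against 0.576 ± 0.360 CPM at day 5.

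Several libraries stood apart within their group. In L4440 day-1 replicate 2 the level of a gene relative to the other libraries fell by 0.66 on the log2 scale with each doubling of its exon length. The same slope was -0.24 in replicate 1 of L4440 at day 1, -0.17 in replicate 2 of T14F9.5 at day 1, and between -0.016 and 0.134 in the others. Those last 2 named libraries have an index and a lane in common by their labels, and their counts differed by 58.5 times what counting noise gives (chi-square per degree of freedom), the smallest value among all pairs that hold either of them, the next being 64.7. At day 5, replicate 1 of each plasmid lay with the day-1 libraries on the first principal component, between -22.5 and -19.4, and the remaining 6 of that age had scores of 52.9 to 70.2. Replicate numbers here only name libraries.

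Compared per kilobase of exon, the receptors were the most abundant of the 10 transcripts and the ligands the least. The median over the 18 libraries was 23.02 CPM per kilobase for daf-1 and 19.4 for daf-4. It was 13.97 for daf-5, 8.52 for daf-3, 6.89 for daf-8 and 5.87 for daf-14. The DBL-1 Smads followed, with 3.58 for sma-3 and 2.12 for sma-2, and the ligands dbl-1 and daf-7 came last with 1.63 and 1.12. Over the 18 libraries, the ranges of neighbours in this order overlapped in every case but 1, since the lowest value of sma-3 (2.96) lay above the highest of sma-2 (2.401). The Smads of the DAF-7 arm thus had higher medians than sma-2 and sma-3, while sma-4 was not among the 10 genes ranked. The neuronal ligands were measured at the depth of 40 to 92 counts (daf-7) and 25 to 124 counts (dbl-1) per library.

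**Figure D1:**
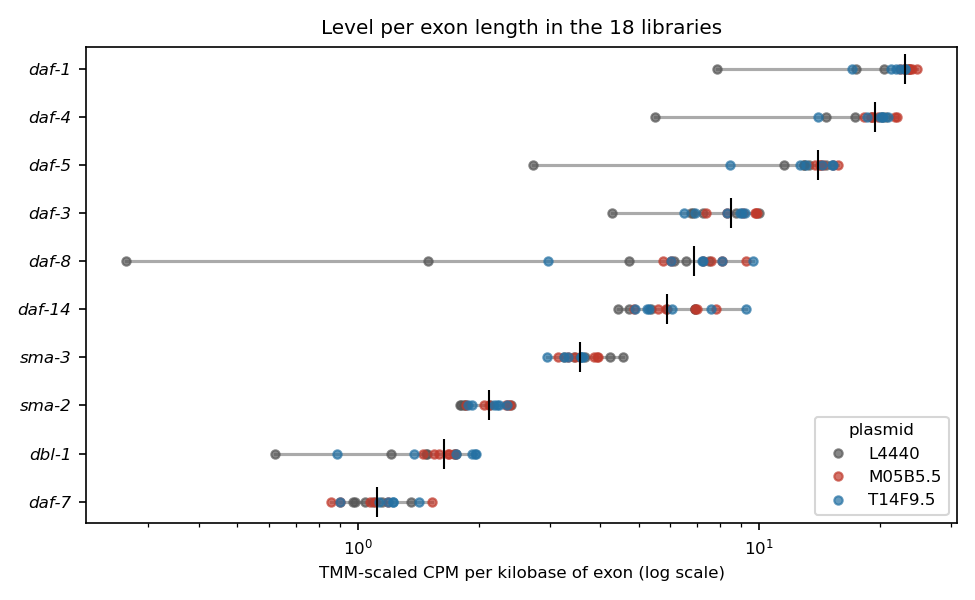
Level of each of the 10 genes per kilobase of exon (TMM-scaled CPM per kilobase, log scale) in the 18 libraries, 1 point per library coloured by plasmid, with a line over the range and a tick at the median. The receptor genes daf-1 and daf-4 have the highest medians (23.02 and 19.4) and daf-7 the lowest (1.12), and the points far to the left for daf-8, daf-5, daf-4, daf-1, daf-3 and dbl-1 are L4440 day-1 replicate 2.

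The ligand gene daf-7 (WBGene00000903, protein coding) lies on the plus strand of chromosome III at 811844-813773 of WBcel235, the build of all positions given here. It stood at 2.22, 1.71 and 1.89 CPM in the 3 day-1 L4440 libraries, at 2.52, 1.95 and 1.82 CPM with M05B5.5 and at 1.95, 1.86 and 2.01 CPM with T14F9.5. At day 5 it stood at 1.79, 1.60 and 1.61 CPM with L4440, at 1.76, 1.41 and 1.48 CPM with M05B5.5 and at 2.34, 2.01 and 1.48 CPM with T14F9.5. No library was far from the rest, the highest value being 1.79 times the lowest. The M05B5.5 values at day 5 all lay below those at day 1, and the other groups overlapped across age. Of the markers listed for ASI and neighbouring sensory neurons, str-3 had no counts in 12 of the 18 libraries, and the 7 markers together summed to between 6.16 and 9.32 CPM.

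The other ligand gene, dbl-1 (WBGene00000936), lies on the plus strand of chromosome V at 6758135-6760418. In the day-1 L4440 libraries it stood at 2.08, 1.07 and 2.57 CPM, with M05B5.5 at 3.01, 2.91 and 2.89 CPM and with T14F9.5 at 3.38, 1.53 and 3.32 CPM. At day 5 its 9 values lay between 2.38 and 3.39 CPM. The lowest values were those of L4440 replicate 2 and T14F9.5 replicate 2 at day 1, and the M05B5.5 libraries at day 1 all lay above the L4440 libraries of that age. The general neuron markers summed to 66.7 to 112 CPM in the day-1 L4440 libraries and 125.6 to 129.3 CPM in the day-1 M05B5.5 libraries. They did not always go with dbl-1, as L4440 day-5 replicate 2 had a sum of 105.2 CPM and 3.03 CPM of dbl-1. Pharynx markers also differed between those day-1 groups, at 44.8 to 74.4 against 91.8 to 96.9 CPM. The part that either plays in the dbl-1 values was not tested.

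The type I receptor gene daf-1 (WBGene00000897) lies on the plus strand of chromosome IV at 132416-138081, and shares 108 exon bases with col-99 on the other strand. It stood at 43.8, 19.6 and 51.3 CPM in the day-1 L4440 libraries, whereas the day-1 M05B5.5 libraries had 56.2, 59.1 and 57.6 CPM and the day-1 T14F9.5 libraries 53.3, 42.7 and 54.9 CPM. At day 5 it stood at 57.7, 58.7 and 59.2 CPM with L4440, at 60.4, 59.4 and 62.1 CPM with M05B5.5 and at 57.8, 57.8 and 56.2 CPM with T14F9.5. The day-5 groups were tight, with SDs from 0.742 to 1.36 CPM, and the day-1 L4440 group was wide, with an SD of 16.6 CPM. The day-5 M05B5.5 values all lay above those of every other group.

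The type II receptor gene daf-4 (WBGene00000900), which serves both ligands, lies on the plus strand of chromosome III at 5625135-5632323. The day-1 L4440 libraries had 45.4, 17.1 and 53.6 CPM, the day-1 M05B5.5 libraries 59.2, 61.1 and 56.4 CPM and the day-1 T14F9.5 libraries 63.1, 43.3 and 57.6 CPM. At day 5 the 9 values lay between 58.9 and 68.3 CPM. As for daf-1, L4440 replicate 2 was the lowest library by far, and the day-5 L4440 values all lay above the day-1 values.

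The receptor Smad gene daf-8 (WBGene00000904) lies on the minus strand of chromosome I at 8584424-8587507, and it varied more between libraries than any other of the 10 genes. In the day-1 L4440 libraries it stood at 2.68, 0.471 and 8.46 CPM, from 94, 11 and 300 counts. The day-1 M05B5.5 libraries had 10.8, 13.6 and 12.99 CPM, and the day-1 T14F9.5 libraries 12.9, 5.33 and 12.99 CPM. All 3 day-1 L4440 values lay below every value of the other groups except T14F9.5 replicate 2. At day 5 it stood at 11.8, 10.98 and 13.4 CPM with L4440, at 10.3, 16.6 and 14.5 CPM with M05B5.5 and at 10.8, 17.3 and 14.5 CPM with T14F9.5, so that the plasmids overlapped. The highest value was 36.7 times the lowest, and 6.46 times without L4440 day-1 replicate 2. The SD of its log2 level over the 18 libraries was larger than that of 96.6% of the genes tested, whereas those of sma-2 and sma-3 were larger than in 7.004% and 6.97%.

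The gene of the other Smad of this arm, daf-14 (WBGene00000910), lies on the plus strand of chromosome IV at 10250627-10255852 and shares 111 exon bases with F01G10.9 on the other strand. It showed no such low values, with 5.65, 6.81 and 7.50 CPM in the day-1 L4440 libraries, 7.44, 7.11 and 8.81 CPM with M05B5.5 and 6.24, 7.69 and 6.70 CPM with T14F9.5. At day 5 it stood at 6.02, 8.81 and 8.78 CPM with L4440, at 6.21, 9.91 and 8.88 CPM with M05B5.5 and at 6.76, 11.8 and 9.66 CPM with T14F9.5. In each of the day-5 groups replicate 1 was the lowest.

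The DBL-1 Smad genes sma-2 and sma-3 lie on chromosome III, sma-2 (WBGene00004856) on the plus strand at 8749680-8757089 and sma-3 (WBGene00004857) on the minus strand at 6860974-6863968. The day-1 values of sma-2 were 3.62, 3.13 and 3.07 CPM with L4440, 4.08, 4.02 and 3.98 CPM with M05B5.5 and 3.99, 3.83 and 3.27 CPM with T14F9.5, and its 9 day-5 values lay between 3.05 and 4.09 CPM. Those of sma-3 were 5.53, 5.96 and 4.65 CPM with L4440, 4.54, 5.13 and 4.36 CPM with M05B5.5 and 4.34, 4.69 and 3.86 CPM with T14F9.5, with 4.10 to 5.17 CPM at day 5. Both were among the steadiest of the genes tested, and sma-3 was the only one of the 10 whose highest value fell in L4440 day-1 replicate 2. The value of sma-2 is uncertain, since it shares 100 exon bases with aak-1 and 52 with ugtp-1 on the other strand, which stood at medians of 41.3 and 41.4 CPM against 3.61 CPM for sma-2, and the kit does not mark the strand of a read.

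The co-Smad gene daf-3 (WBGene00000899) lies on the minus strand of chromosome X at 817922-825475. Day-1 values were 23.1, 13.7 and 27.8 CPM with L4440, 31.1, 31.4 and 29.02 CPM with M05B5.5 and 28.5, 21.9 and 29.3 CPM with T14F9.5. At day 5 daf-3 stood at 31.7, 21.8 and 21.5 CPM with L4440, at 31.1, 26.3 and 23.4 CPM with M05B5.5 and at 28.7, 26.4 and 20.6 CPM with T14F9.5. Here replicate 1 was the highest of each day-5 group, the opposite of daf-14.

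The Ski family gene daf-5 (WBGene00000901) lies on the minus strand of chromosome II at 14033216-14052304. It stood at 30.5, 7.24 and 34.3 CPM in the day-1 L4440 libraries, at 37.5, 38.2 and 37.5 CPM with M05B5.5 and at 40.2, 22.4 and 40.4 CPM with T14F9.5. The 9 day-5 values lay between 33.4 and 41.5 CPM. The 2 low libraries of daf-5, L4440 replicate 2 and T14F9.5 replicate 2 at day 1, were also the lowest of dbl-1.

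**Figure D2:**
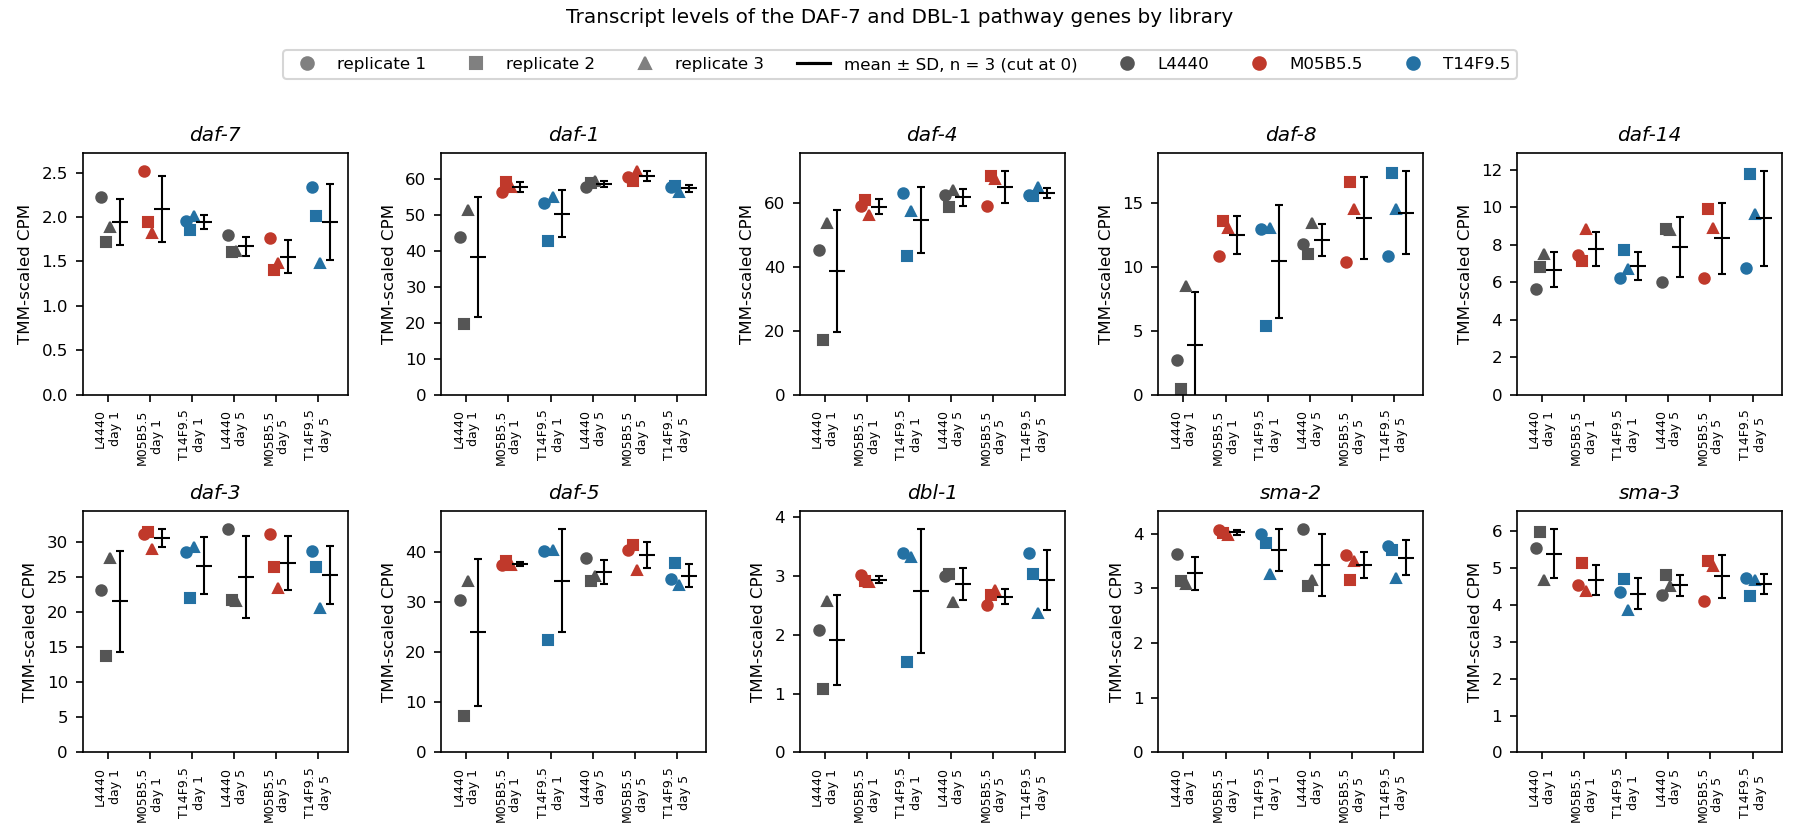
TMM-scaled CPM (y axis, from 0) of the 10 genes in each library, by plasmid and age, with symbols for the replicate number and the mean ± SD of 3 libraries beside them (bars are cut at 0). The day-1 L4440 group is wide for daf-1, daf-4, daf-8, daf-3, daf-5 and dbl-1, with replicate 2 the lowest, and narrow for daf-7, daf-14, sma-2 and sma-3.

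L4440 day-1 replicate 2 set much of the spread of 6 of the 10 genes. Relative to the median of the other 17 libraries, the log2 level in it was -4.62 for daf-8, -2.36 for daf-5, -1.84 for daf-4, -1.55 for daf-1, -1.38 for dbl-1 and -1.02 for daf-3. The remaining genes deviated little, with -0.21 for sma-2, -0.14 for daf-14, -0.11 for daf-7 and 0.35 for sma-3. Among all genes tested, 0.604% deviated as low as daf-8 or lower, 4.26% as low as daf-5 and 19.02% as low as daf-3.

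The deviations went in part with exon length. Over the 500 genes nearest in exon length, the median deviation in that library was -1.02 around daf-3, so that daf-3 itself lay at the level of genes of its length. For daf-8 the corresponding median was -0.27, for daf-5 -0.88, for daf-4 -0.98, for daf-1 -0.80 and for dbl-1 -0.27, all smaller in size than the deviation of the gene itself. In L4440 day-1 replicate 1, daf-8 deviated by -2.24 where genes of its length had a median of -0.10, and in T14F9.5 day-1 replicate 2 by -1.27 where they had -0.05. In L4440 day-1 replicate 3, whose length slope was -0.016, daf-8 deviated by -0.61 where genes of its length had -0.015, and 3.36% of all genes lay as low or lower. Germ line and oocyte markers summed to 5733, 4431 and 7970.2 CPM in the day-1 L4440 libraries and to 6108 CPM in T14F9.5 day-1 replicate 2, against 7472 to 8814 CPM in the other 14 libraries. Their part in the low values was not tested.

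**Figure D3:**
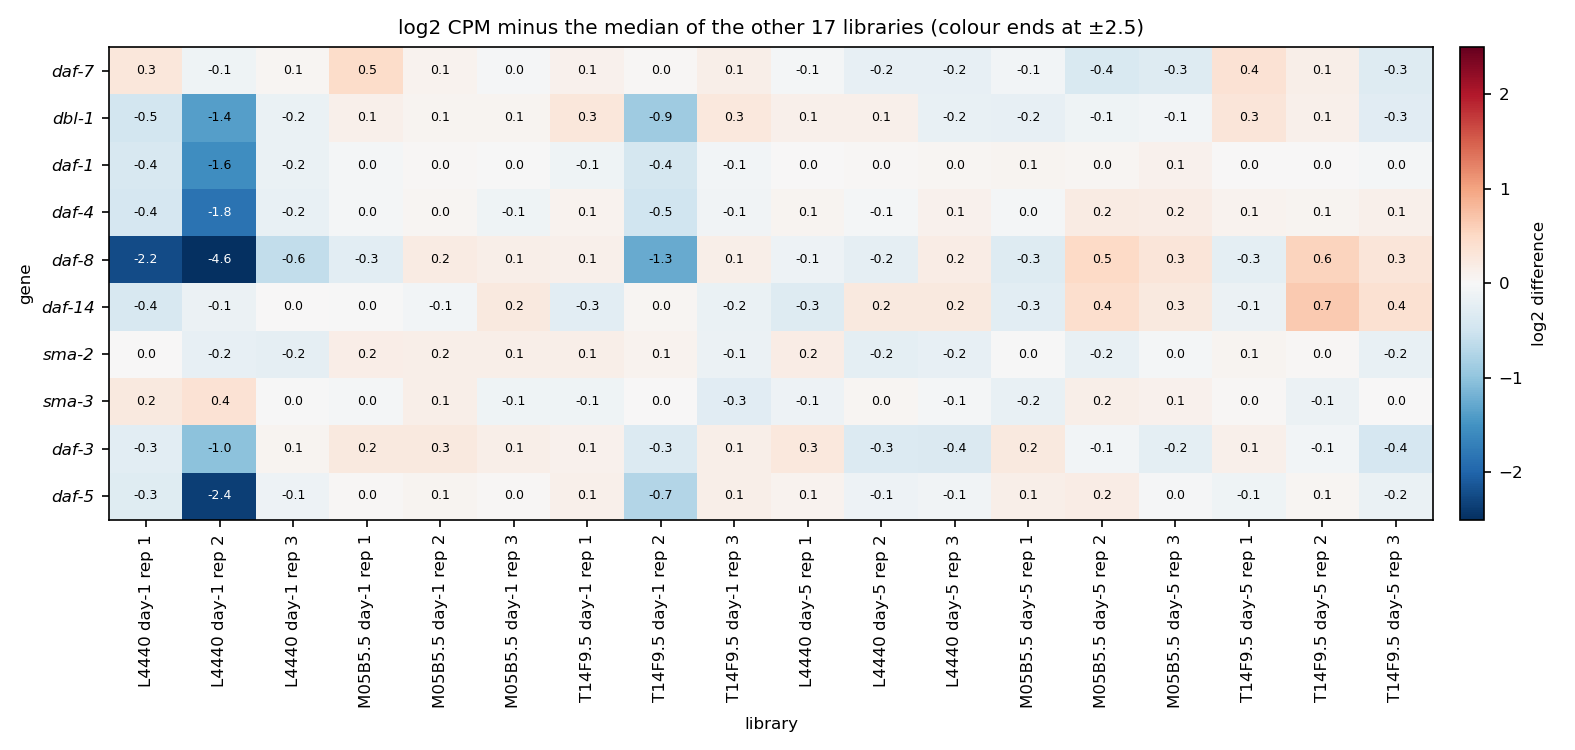
Deviation of each gene (rows) in each library (columns), as its log2 CPM minus the median of the other 17 libraries, in colour and in digits. The deepest values lie in L4440 day-1 replicate 2, from -4.62 for daf-8 to 0.35 for sma-3, and daf-8 is also low in replicate 1 of L4440 (-2.24) and replicate 2 of T14F9.5 (-1.27) at that age.

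**Figure D4:**
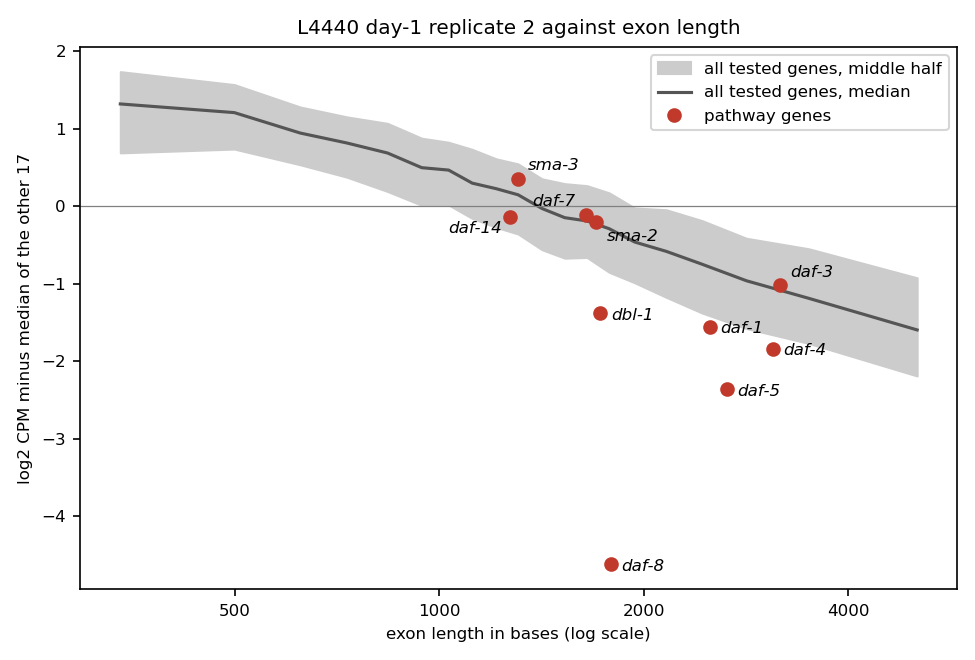
Deviation in L4440 day-1 replicate 2 (y axis, log2 CPM minus the median of the other 17 libraries) against exon length in bases (x axis, log scale), with the median and the quartiles of all genes tested in bins of length as a line and a band and the 10 genes as points. daf-3, sma-2 and daf-7 lie close to the line, and daf-8, daf-5 and dbl-1 lie far below the band.

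Setting M05B5.5 against L4440 at day 1 asks how the transcripts stood when hlh-2 was targeted in young animals. No listed gene changed past an adjusted p of 0.05 over the 14735 genes tested, and 0% of all genes did. The largest difference was that of daf-8, with a log2 fold change of 1.66 (SE 0.60, edgeR adjusted p 0.0905). It was followed by daf-5 with 0.65, daf-4 with 0.60, dbl-1 with 0.60, daf-1 with 0.59 and daf-3 with 0.50, with edgeR adjusted p from 0.106 to 0.239. The values were 0.29 for sma-2, 0.23 for daf-14, 0.10 for daf-7 and -0.20 for sma-3. The median over the 10 genes was 0.55, against -0.03 over all genes tested. That median was 0.14 with a length-dependent offset fitted to each library (all genes -0.06) and 0.25 without L4440 day-1 replicate 2 (all genes -0.02). The unadjusted p was under 0.05 for 4 of the 10 genes (daf-1, daf-4, daf-8 and daf-3), as it was for 31.8% of all genes. DESeq2 called 1, daf-8, with an adjusted p of 0.0320, where it called 16.2% of all genes.

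In that comparison all 3 M05B5.5 libraries lay above all 3 L4440 libraries for 7 of the 10 genes (daf-1, daf-4, daf-8, daf-3, daf-5, dbl-1 and sma-2), where 21% of all genes tested were so placed and 20.3% were placed the other way. Without L4440 day-1 replicate 2 the same count was 7, where 23.9% of all genes were so placed. Neither share was taken over genes of like exon length. The size of the differences depended on L4440 day-1 replicate 2. Without it the log2 fold changes were 1.15 for daf-8, 0.27 for daf-1, 0.25 for daf-4, 0.26 for daf-3, 0.22 for daf-5 and 0.33 for dbl-1. Without L4440 day-1 replicate 3, daf-8, daf-1, daf-4 and daf-3 passed the threshold, at 2.92, 0.88, 0.93 and 0.75, where 33.7% of all genes passed. With a length-dependent offset fitted to each library, daf-8 kept 1.54, whereas daf-4 had 0.10 and daf-3 -0.081. M05B5.5 and L4440 shared no sequencing lane at day 1, so that lane and plasmid cannot be told apart.

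The libraries labelled T14F9.5, in which lin-32 was no lower, had smaller differences from L4440 at day 1, daf-8 again the largest. No listed gene changed past the threshold in edgeR or in DESeq2, as for 0% of all genes in edgeR and 4.72% in DESeq2, and 1 of 10, daf-8, had an unadjusted p under 0.05, as had 22.8% of all genes. The log2 fold change of daf-8 was 1.4 (SE 0.60, edgeR adjusted p 0.185), with an interval from 0.13 to 2.67. The other genes lay between -0.32 (sma-3) and 0.51 (daf-5), and the median was 0.35 against -0.03 over all genes tested. That median was 0.084 with the length-dependent offset (all genes -0.037) and 0.078 without L4440 day-1 replicate 2 (all genes -0.013). The groups overlapped for all 10 genes, where 8.56% of all genes had every T14F9.5 library above every L4440 library and 8.35% every one below. Without L4440 day-1 replicate 2 the value of daf-8 was 0.89, and those of daf-1, daf-4, daf-3 and daf-5 were 0.076, 0.14, 0.060 and 0.080. Leaving out L4440 day-1 replicate 3, daf-8, daf-1 and daf-4 passed, at 2.66, 0.68 and 0.82, where 25.9% of all genes passed. With the lane as a term, daf-8 had 1.63 and no listed gene passed.

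At day 5 the fitted differences between plasmids were small for all 10 genes. M05B5.5 against L4440 gave log2 fold changes between -0.11 (dbl-1) and 0.19 (daf-8), and T14F9.5 against L4440 between -0.03 (daf-1) and 0.25 (daf-14). None passed the threshold in edgeR or DESeq2, and 0% of all genes were called by edgeR in either comparison. None had an unadjusted p under 0.05, where 1.36% and 0.631% of all genes had one. The target hlh-2 was also not called with M05B5.5 against L4440 at this age (-1.41, edgeR adjusted p 0.916). The lack of calls thus does not show that the 10 genes were unchanged. Among the 95% intervals of M05B5.5 against L4440, that of sma-3 ran from -0.26 to 0.41 and that of daf-8, the widest, from -1.04 to 1.43. Of the 10 genes, daf-1 alone had every M05B5.5 library above every L4440 library, at 59.4 to 62.1 against 57.7 to 59.2 CPM, where 1.64% of all genes were so placed, and its log2 fold change was 0.05 (SE 0.23).

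Set directly against each other, the libraries labelled M05B5.5 and T14F9.5 did not differ past the threshold in these genes. At day 1 they shared no sequencing lane, so that lane and plasmid cannot be told apart at that age. At day 1 all 10 values were positive, between 0.09 (dbl-1) and 0.26 (daf-8) on the log2 scale, and at day 5 they lay between -0.31 (daf-7) and 0.16 (daf-5). The common sign at day 1 rested on T14F9.5 day-1 replicate 2. Without that library 6 values were positive and 4 negative, from -0.19 to 0.27. No listed gene passed in edgeR or DESeq2 at either age, where 0.00679% of all genes passed in edgeR at day 1 and 0% at day 5. None had an unadjusted p under 0.05, where 0.964% and 1.93% of all genes had one. For daf-1 every M05B5.5 library lay above every T14F9.5 library at both ages, as for 3.89% of all genes at day 1 (4.55% lay the other way) and 1.72% at day 5 (2.52% the other way).

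Age was compared within each plasmid. No plasmid had a sequencing lane in common between its ages. A lane term could be fitted for age in M05B5.5 only, so that lane and age cannot be told apart in L4440 and T14F9.5. In L4440, where 15.8% of all genes changed between day 1 and day 5, no listed gene did. The log2 fold change of day 5 against day 1 was 1.61 for daf-8 (SE 0.60, edgeR adjusted p 0.0700), 0.67 for daf-4 (SE 0.27, edgeR adjusted p 0.0896) and 0.61 for daf-1 (SE 0.23, edgeR adjusted p 0.0722). These 3 genes also had every day-5 library above every day-1 library, as 15.6% of all genes did, and were the 3 with an unadjusted p under 0.05, as were 39.2% of all genes. DESeq2 called daf-8 and daf-1, with adjusted p of 0.0268 and 0.0426, where it called 26.4% of all genes. The values of daf-5 and dbl-1 were 0.58 and 0.56, those of daf-14, daf-3 and sma-2 were 0.24, 0.22 and 0.06, and those of daf-7 and sma-3 were -0.22 and -0.25. The median was 0.40 against -0.03 over all genes tested. That median was 0.25 with the length-dependent offset (all genes -0.017) and 0.21 without L4440 day-1 replicate 2 (all genes -0.007).

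The difference with age in L4440 rests on the same day-1 libraries as the day-1 plasmid comparisons, so the 3 comparisons share their controls. Without L4440 day-1 replicate 2, day 5 against day 1 gave 1.11 for daf-8, 0.30 for daf-1 and 0.32 for daf-4. Without L4440 day-1 replicate 3, the highest of the 3, daf-8, daf-1 and daf-4 passed the threshold, at 2.88, 0.90 and 1.00, where 36.97% of all genes passed. The number of all genes called in this comparison also moved with single libraries, from 0 to 5533.

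**Figure D5:**
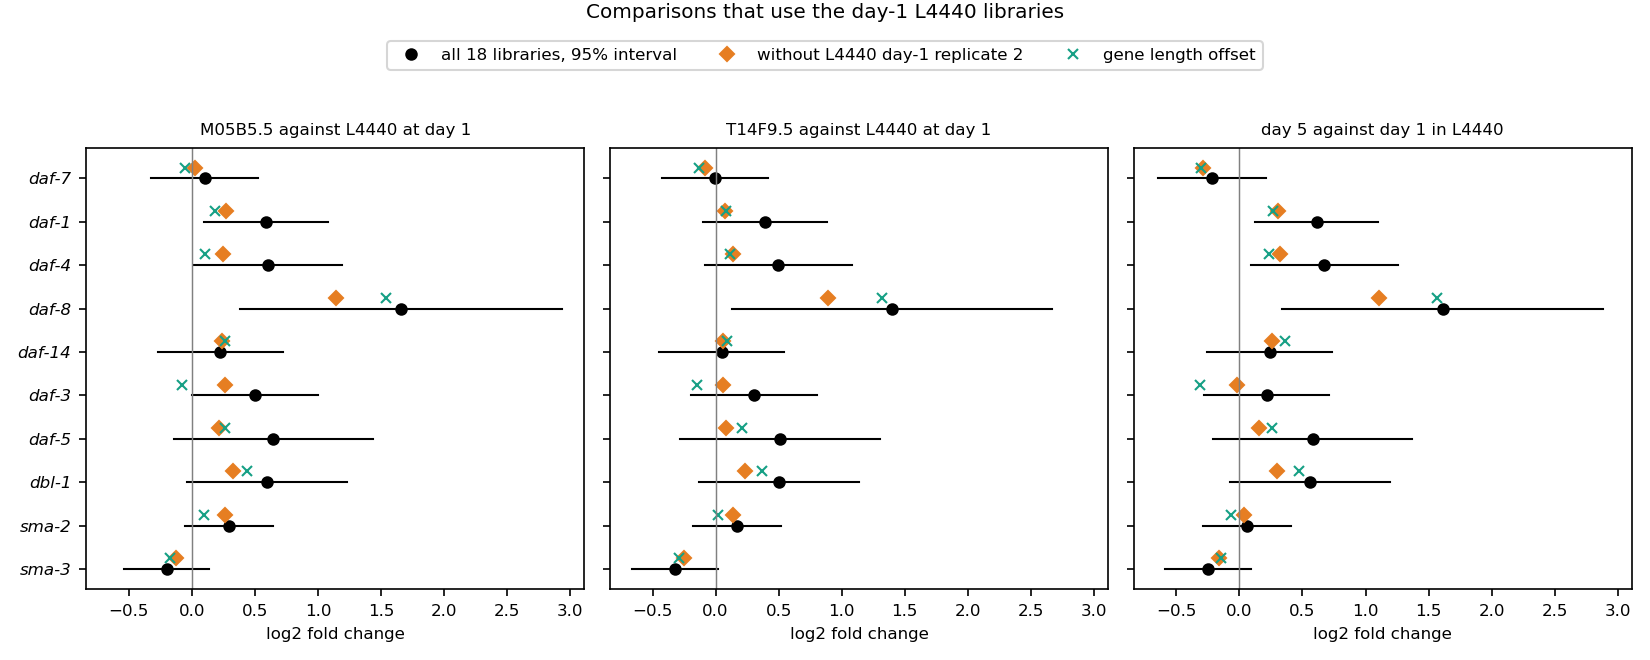
Log2 fold changes of the 10 genes in the 3 comparisons that use the day-1 L4440 libraries, from all 18 libraries with the 95% interval (black), without L4440 day-1 replicate 2 (orange diamonds) and with a gene length offset (green crosses). daf-8 stays between 0.89 and 1.66 in all of these, those of daf-1, daf-4 and daf-5 lie closer to 0 in both alternatives, and that of daf-3 lies closer to 0 or below it.

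With M05B5.5, no listed gene changed with age in edgeR or DESeq2, no unadjusted p was under 0.05 (12.9% of all genes had one), and 0% of all genes were called by edgeR. The largest value was that of daf-7, at -0.42 (SE 0.20, edgeR adjusted p 0.389), from 2.09 ± 0.372 CPM at day 1 to 1.55 ± 0.186 CPM at day 5 (SD, n = 3). Every day-5 library lay below every day-1 library for daf-7, dbl-1 and sma-2, as for 16% of all genes, and above for daf-1, as for 12.8%. With a term for replicate 1 of each plasmid at day 5, daf-7 passed, at -0.52 (edgeR adjusted p 0.0366), where 26.03% of all genes passed. Those libraries were set apart by their values in these same data, so that call cannot decide whether daf-7 changed with age. In daf-8 the value over all 18 libraries was 0.15, with an interval from -1.09 to 1.38.

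In the libraries labelled T14F9.5, again no listed gene changed with age by either tool, no unadjusted p was under 0.05 (10.2% of all genes had one), and 0% of all genes were called by edgeR. The values ran from -0.07 for daf-3 to 0.45 for daf-14 (SE 0.23, edgeR adjusted p 0.507). For daf-1 all day-5 libraries lay above all day-1 libraries, as for 7.99% of all genes, at 56.2 to 57.8 against 42.7 to 54.9 CPM. Without replicate 1 of each plasmid at day 5, daf-14 passed, at 0.63 (edgeR adjusted p 0.0192), where 17.9% of all genes passed. The libraries left out were picked by their values in these same data, so that call cannot decide whether daf-14 changed with age.

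The tests of age are affected by the day-5 libraries that lay with the day-1 libraries. In replicate 1 of the 3 plasmids at day 5, daf-14 stood at 6.02 to 6.76 CPM, within the day-1 range of 5.65 to 8.81 CPM, and in the other 6 day-5 libraries at 8.78 to 11.8 CPM. For daf-3 the same libraries had 28.7 to 31.7 CPM. The other 6 had 20.6 to 26.4 CPM, which also lay within the day-1 range of 13.7 to 31.4 CPM. The 2 sets did not overlap for these 2 genes, and the share of all genes that did not overlap between them was not counted. The sets were told apart from the data and not from the labels, so they were not tested against each other. The tests of age with a term for replicate 1, or without it, rest on the same split. Body wall muscle markers summed to 605 to 830 CPM in the other 6 libraries and to 1922 to 2026 CPM in replicate 1 of each plasmid, against 1506 to 2085 CPM at day 1, and their part in the daf-14 and daf-3 values was not tested.

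Whether the difference to L4440 itself changed with age was tested as an interaction. For M05B5.5 the change ran from -1.47 (daf-8, SE 0.83, edgeR adjusted p 0.408) to 0.28 (sma-3), and 9 of 10 values were negative. For T14F9.5 it ran from -1.17 (daf-8) to 0.33 (sma-3), with 7 of 10 negative. No listed gene passed in either test by edgeR or DESeq2, none had an unadjusted p under 0.05 (13.1% and 5.19% of all genes had one), and 0% of all genes passed in edgeR. The M05B5.5 interaction of daf-8 passed without L4440 day-1 replicate 3, at -2.72, where 14.2% of all genes passed. The larger differences to L4440 at day 1 than at day 5 were therefore not shown to differ between the ages.

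Other genes of the pathways were described from 5 lists. Of 6 further TGF-beta ligands, receptors and Smads (sma-6, sma-4, sma-9, unc-129, tig-2 and tig-3), none passed in any comparison in edgeR over all 18 libraries. The most abundant of them, sma-9, a zinc finger Schnurri homologue that acts with the Smads, stood at 49.3, 17.3 and 73.7 CPM in the day-1 L4440 libraries and at 90.2 to 93.1 CPM with M05B5.5, with a log2 fold change of 0.97 (SE 0.42, edgeR adjusted p 0.128). Without L4440 day-1 replicate 3 it passed, at 1.48 (edgeR adjusted p 0.0191), where 33.7% of all genes passed. Their median in that comparison was 0.47, against -0.03 over all genes tested. Neither it nor the list medians below were taken with the length-dependent offset, or over genes of like exon length. For the TGF-beta genes described first, the median in the same comparison was 0.55 without that offset and 0.14 with it. The part that exon length plays in the list medians was not tested.

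Among 10 modulators of DBL-1 signalling (lon-2, sma-10, drag-1, unc-40, crm-1, tsp-12, tsp-14, tsp-21, sup-17 and adt-2), 3 rose from day 1 to day 5 in L4440 and none fell, where 6.72% of all genes rose and 9.11% fell, and the list's median was 0.43 against -0.03. These were sma-10, a membrane protein that binds the receptors (0.83, SE 0.22, edgeR adjusted p 0.0361), crm-1, a Crim1-like protein that promotes DBL-1 signalling (1.19, SE 0.32, edgeR adjusted p 0.0361), and sup-17, an ADAM10 protease (0.82, SE 0.25, edgeR adjusted p 0.0422). The level of crm-1 was 15.1, 7.63 and 17.1 CPM at day 1 and 23.1, 33.4 and 34.9 CPM at day 5. That of sma-10 was 7.38, 4.84 and 9.17 CPM at day 1 and 12.3, 12.2 and 13.7 CPM at day 5. Every day-5 library lay above every day-1 library for 5 of the 10 modulators (these 3, lon-2 and drag-1), as for 15.6% of all genes, and below for 2 (tsp-12 and tsp-21), as for 16.5%. None of the 3 calls held without L4440 day-1 replicate 2 (0.62, 0.92 and 0.52 for sma-10, crm-1 and sup-17), and all were also lost without L4440 day-1 replicate 1, day-5 replicate 2 or day-5 replicate 3, that of sup-17 also without day-5 replicate 1. In the other comparisons 0 of the 10 passed in edgeR over all 18 libraries. DESeq2 called sma-10 (adjusted p 0.0196) and sup-17 (adjusted p 0.0325) for M05B5.5 against L4440 at day 1, where it called 16.2% of all genes, and sma-10 for T14F9.5 (adjusted p 0.0469), where it called 4.72%. The median of this list was taken without the length-dependent offset. Exon lengths in the list ran from 1158 bases (tsp-21) to 4840 bases (unc-40), against a median of 1363 bases over the genes tested.

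Of 9 genes reported to respond to DBL-1 or to set body length (lon-1, lon-3, rol-6, col-41, cnc-2, mab-21, spp-9, kin-29 and egl-4), 1 rose with age in L4440 and none fell, where 6.72% of all genes rose and 9.11% fell. The gene that rose was spp-9, a saposin-like gene (3.89, SE 1.09, edgeR adjusted p 0.0368). Its counts were 1, 0 and 1 at day 1 and 0, 62 and 64 at day 5, so that the fitted fold depends on the prior count, and replicate 1 at day 5 had none. The call was lost without any 1 of L4440 day-1 replicate 1, day-1 replicate 2, day-5 replicate 2 and day-5 replicate 3, at 3.46 to 3.98. The list's median was 0.81 in that comparison, against -0.03 over all genes tested, both without the length-dependent offset.

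No gene of the last 2 lists passed in any comparison in edgeR over all 18 libraries. The first, 11 genes of sensory input to DAF-7 (daf-11, tax-2, tax-4, unc-3, pdp-1, bra-1, scd-2, hen-1, tph-1, daf-10 and osm-6), had 10 tested, all but tax-2. Its most abundant member, pdp-1, a PP2C family phosphatase that acts on the pathway, stood at 92.5 to 147 CPM, with a log2 fold change with age in L4440 of 0.15 (SE 0.14, edgeR adjusted p 0.407). The second held 11 genes of hormone and neural steps (daf-9, daf-12, daf-36, din-1, daf-28, mgl-1, mgl-3, tdc-1, tbh-1, daf-2 and daf-16). There tdc-1, the tyrosine decarboxylase of tyramine synthesis, was the most abundant, with 230 to 368 CPM, and had 0.32 (SE 0.13, edgeR adjusted p 0.0803) with age in L4440, where DESeq2 called it (adjusted p 0.0377) along with 26.4% of all genes. The medians of the 2 lists in that comparison were 0.46 and 0.24, again without the length-dependent offset.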

How the data were processed

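The deposited table held raw counts of reads per gene. Per the submitters' processing notes, the authors used bcl2fastq 1.8.4, STAR 2.4.1d and featureCounts 1.4.6-p4 with the genome build WBcel235. Per the labels' protocols, libraries were made with the TruSeq RNA kit v2, which does not mark strand, and the strand setting of the counting is not given in the sources used here. A second deposited table of RPKM was not used. Groups came from the plasmid and age in the labels.

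Genes were kept by edgeR's filterByExpr (minimum count 10, 14735 of 46748). They were tested with edgeR 4.0.16 (R 4.3.3), using the quasi-likelihood test, TMM factors, 1 term per group over all 18 libraries and Benjamini-Hochberg adjustment over all genes tested at 0.05. Log2 fold changes use a prior count of 2, and intervals are 95%. The common dispersion was 0.0815. DESeq2 1.42.0, RLE factors, other count filters, only the groups compared, a length offset (a spline of exon length with 4 degrees of freedom), lane, left-out libraries and a term for the day-5 libraries that stood apart were tried as alternatives. Positions and exon lengths came from Ensembl release 115 (WBcel235), which held 46449 of the identifiers. The edgeR steps were tested on simulated data. The named genes are the 10 members, up to 4 called genes of each list (otherwise its most abundant gene) and the 2 plasmid targets. The members and lists were chosen with earlier results of these data known.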

Additional observations from a re-analysis of the deposited data

How the results depend on the processing

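No paired analysis was possible because the labels give no replicate numbers that tie libraries across groups. The count of listed genes called, 0 in all 11 comparisons, rose with DESeq2 to 1 (M05B5.5 against L4440 at day 1, 16.2% of all genes) and 2 (age in L4440, 26.4%), and with a term for replicate 1 of each plasmid at day 5 to 2 for age in L4440 (daf-8 and daf-14), 1 in M05B5.5 (daf-7, -0.52, adjusted p 0.0366) and 1 in T14F9.5 (daf-14, 0.62, adjusted p 0.00624), where 42.3%, 26.03% and 23.9% of all genes passed. That term also called tdc-1 with age in L4440 (adjusted p 0.0323). Leaving those libraries out gave 1 in T14F9.5 (daf-14, 0.63, adjusted p 0.0192, with 17.9% of all genes). As those libraries were picked by their values in these same data, the calls of age made with the term or without them decide nothing about age. Leaving out 1 library at a time, the counts ran from 0 to 4 (M05B5.5 at day 1), 0 to 3 (T14F9.5 at day 1), 0 to 3 (age in L4440) and 0 to 1 (M05B5.5 interaction), every call arising without L4440 day-1 replicate 3, where daf-8 had 2.92, 2.66, 2.88 and -2.72 and 33.7%, 25.9%, 36.97% and 14.2% of all genes passed. The count of listed genes was 0 in every other alternative run.

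Directions reversed with the length offset for daf-7 (-0.055) and daf-3 (-0.081) with M05B5.5 at day 1, for daf-3 with T14F9.5 at day 1 (-0.15), and with age in L4440 for daf-3 (-0.31), sma-2 (-0.063), sma-9 (-0.029) and tdc-1 (-0.10). For T14F9.5 at day 1, daf-7 reversed with RLE factors (0.0067), with no filter (0.047) and without the pair sharing an index and lane (0.13), and daf-14 without that pair (-0.14). With age in L4440, sma-2 reversed with the day-5 term (-0.017) and without those libraries (-0.077). Leaving out 1 library, ranges crossed 0 for daf-7 with M05B5.5 (-0.044 to 0.21) and T14F9.5 (-0.085 to 0.11) at day 1, for daf-14 with T14F9.5 at day 1 (-0.055 to 0.16), and with age in L4440 for daf-3 (-0.021 to 0.46), sma-2 (-0.076 to 0.15) and pdp-1 (-0.017 to 0.29). All of these values were small and uncalled, and the cause was not tested.

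The count over all genes for age in L4440 was 2332, 3884 with DESeq2, 715 with no filter, 6240 with the day-5 term, 4495 without those libraries, and 0 with only the groups compared, with the length offset or without the pair sharing an index and lane. With only the groups compared, or with the length offset, the calls of sma-10, crm-1 and sup-17 were lost, and that of spp-9 with the offset. Depth limits daf-8, dbl-1 and daf-7 most, at 11, 25 and 40 counts in their lowest library. A lane term could not be fitted for M05B5.5 against L4440 or against T14F9.5 at day 1. Nor could it be for age in L4440, age in T14F9.5 or the M05B5.5 by age interaction. In those comparisons lane cannot be told apart from what was compared.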

Other observations

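The split among the day-5 libraries also showed in lon-1, a secreted-protein gene of the body length list that DBL-1 signalling is known to repress and that was singled out after its values were seen. It stood at 44.9 to 55.6 CPM in the 9 day-1 libraries. In replicate 1 of each plasmid at day 5 it stood at 50.5 CPM with L4440, 51.5 CPM with T14F9.5 and 51.4 CPM with M05B5.5. The other 6 day-5 libraries had 24.6 and 25.003 CPM with L4440, 26.6 and 25.8 CPM with T14F9.5 and 28.7 and 35.0 CPM with M05B5.5. Age over all libraries gave a log2 fold change of -0.55 in L4440 (SE 0.30, edgeR adjusted p 0.174).

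In the modulator list, crm-1 showed the opposite order. Replicate 1 of each plasmid at day 5 stood between 20.7 and 23.1 CPM, and the other 6 at 33.4 to 44.0 CPM, against 7.63 to 20.2 CPM at day 1. The counts of spp-9 at day 5 were 0, 62 and 64 with L4440, 1, 31 and 42 with T14F9.5 and 0, 1 and 5 with M05B5.5. The libraries of M05B5.5 other than replicate 1 thus stood below those of the other plasmids. With a term for replicate 1 of each plasmid at day 5, a split seen in the data and not in the labels, crm-1 passed with age in L4440 (1.44), M05B5.5 (1.11) and T14F9.5 (1.11) by edgeR, where 42.3%, 26.03% and 23.9% of all genes passed. With the same term spp-9 passed in M05B5.5 against L4440 at day 5 (-3.28, edgeR adjusted p 0.0067), where 0.0747% of all genes passed. Without those libraries it passed at -3.65 (edgeR adjusted p 0.0383), where 0.0201% of all genes passed. As those libraries were picked by their values in these same data, such calls of crm-1 and spp-9 decide nothing about age or plasmid. Over all 18 libraries, of these 4 differences the one of crm-1 with age in L4440 passed. The fitted folds of spp-9 depend on the prior count, since M05B5.5 had few counts. These genes were singled out after their values were seen.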
